A study of Mus musculus with 4 samples.

Results

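The EGF receptor family and its inhibitors are described here in the liver of Rap1-deficient mice, through 6 of the 19748 genes that the array's probes could be named for. They carried 9 of its 55681 probes. The genes were Egfr, Erbb2 and Erbb3, which encode receptors, and Errfi1, Lrig1 and Phlda1, which have been linked to the restraint of those receptors. They were chosen by the known function of the gene and selected on measured values as well, because the genotype difference of Egfr on these same arrays was known when the family was put together. The genotype differences of the 6 genes are therefore given as a description. Where a probe of theirs passed the threshold of the fit over all probes, this is stated beside the share of all probes that did, and is not evidence about the family. Every probe that carries a RefSeq accession of one of the genes was taken, and all 9 passed the filter on dim probes that kept 27513 probes.

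EGFR is a tyrosine kinase at the cell surface that binds EGF and related ligands, pairs with itself or with another receptor of the family, and signals through adaptor proteins to the RAS and ERK kinases and to PI3K. ERBB2 has no known ligand of its own, ERBB3 has little kinase activity and signals as a partner, and ERBB4 is the remaining family member. Signaling is ended by ubiquitin ligases and endocytosis and by inhibitors whose genes are often induced by the receptor itself. Hepatocytes are known for abundant EGFR, which takes part in liver regeneration.

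The livers came from Rap1 -/- mice, in which Rap1 was removed from the whole body by a Cre that the adenovirus EIIa promoter drives in the early embryo and that was bred out afterwards, and they were compared with livers of wild-type mice. Both genotypes were on a mixed C57BL6/129SV background, and the labels give an age of 30 weeks and no sex. The paper describes the mice as female and gives a later age. Each of the 4 arrays carried a Rap1-deficient liver in 1 dye and a wild-type liver in the other: Rap1-deficient RNA was in Cy5 for replicates 1, 2 and 3 and in Cy3 on a dye-swapped array that its label numbers 1, called the swap. The arrays of replicate 1 and its dye swap were averaged after the sign of the swap had been turned, which gave n = 3 pairs of livers. Whether each pair came from separate animals is not stated, so the spread between pairs may in part be technical.

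The arrays set limits on any probe. Between 50.1% and 56.4% of spots in a channel were well above background and none was saturated, and precision is limited by having 4 arrays. The extraction protocol gives RNA integrity numbers of 6.6 to 8.7. After turning, the log2 ratios of the dye-swapped array correlated with those of replicates 1 to 3 at -0.29 to -0.24 over all tested probes, whereas replicates 1 to 3 correlated with each other at 0.64 to 0.85. The SD of the log2 ratios was 0.24 on the dye-swapped array and 0.48 to 0.51 on the other arrays. Since the Rap1-deficient liver carried Cy5 on all 3 of those, dye and genotype cannot be told apart on them, and the value of the dye-swapped array is given throughout. Terf2ip, the gene that encodes RAP1, at 1 of its probes (A_52_P381806) exceeded background on 0 of 4 Rap1-deficient channels and 4 of 4 wild-type channels. At this probe Rap1-deficient liver was at least 3.33-fold lower, a bound that was not itself tested. Its log2 fold change in limma was -1.85 (adjusted p = 0.00859). A further Terf2ip probe (A_55_P2094079) read higher in Rap1-deficient liver (log2 fold change 0.96). No source used here places either probe inside or outside the deleted part. The bound sets the mean of the brighter genotype against that of the dimmer one, on channel values that stay open to dye bias. On each array the dimmer genotype was given at least the dimmest signal counted as well above background.

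Hepatocyte markers were well above background in both genotypes on all arrays at 7 of 7 probed genes. Of 5 adipocyte markers, 0 were well above background in both genotypes on all arrays. Except for Lep, these markers separated replicate 1 from the rest. The log2 ratio of Adipoq was 1.73 on the array of replicate 1 and 1.85 on its dye swap, against 0.07 in replicate 2 and -0.23 in replicate 3. Cfd, a serine protease secreted by fat, read 2.35 and 2.28 on the arrays of replicate 1, 0.40 in replicate 2 and -1.12 in replicate 3. The summed linear intensity of the 5 adipocyte markers ranged from 364 to 1409 in Rap1-deficient liver and from 400.3 to 466 in wild-type liver. Lep was not well above background on any array. Of 6 endothelial markers 3 were higher at the study's threshold, Kdr, Cdh5 and Pecam1, each with a ratio below 0 on the dye-swapped array (-0.35, -0.02 and -0.09). Their summed intensity ranged from 13843 to 16230 in Rap1-deficient liver and from 11538 to 15301 in wild-type liver. Of 5 tested lymphocyte markers 2 were higher, Cd3e and Cd3g, with -0.22 and -0.14 on the dye-swapped array, and the summed intensity of the list ranged from 2285 to 3442 in Rap1-deficient liver and from 2038 to 2334 in wild-type liver. Of 6 Kupffer cell markers Vsig4 was lower, with 0.13 on the dye-swapped array, and the sum ranged from 16558 to 60193 in Rap1-deficient liver and from 26917 to 29503 in wild-type liver. The cholangiocyte marker Krt19 was higher, with 0.28 on the dye-swapped array. Of the hepatocyte markers Alb and Serpinc1 were higher, with -0.53 and -0.62 on the dye-swapped array. The part of any of these cells in the values below was not tested. In whole liver, fewer cells of a type and less RNA per cell cannot be told apart.

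Among the receptors, Egfr was lower in Rap1-deficient liver at all 3 of its probes and on all 4 arrays. The means over pairs of these probes were 2.07-fold to 3.12-fold lower, and single arrays had log2 ratios of -0.53 to -1.79. Erbb2 and Erbb3 differed by log2 fold changes of 0.16 each, with overlapping genotypes. Among the inhibitors, Phlda1 was 3.76-fold lower and Errfi1 1.59-fold lower, and Lrig1 differed by -0.18 and -0.06 at its 2 probes. The windows before the transcription starts of Egfr, Erbb2 and Errfi1 are shown because the genes of the family that were lower include Egfr and Errfi1, with Erbb2 as a member that was not. RefSeq tables of the build GRCm38.p6 held starts for 4 of the 6 genes, and Erbb3 and Phlda1 were not among them. Each window is the 250 bases before a start, 5′ to 3′ on the strand of the gene, with capitals on matches to the motifs that were searched on both strands: TTAGGG (the telomeric repeat that shelterin covers), GGGCGG (GC box), TGACGTCA (cAMP response element), TTCNNNGAA (STAT motif), TCCTCC and TATAAA.
Egfr, chr11:16751953-16752202, plus strand: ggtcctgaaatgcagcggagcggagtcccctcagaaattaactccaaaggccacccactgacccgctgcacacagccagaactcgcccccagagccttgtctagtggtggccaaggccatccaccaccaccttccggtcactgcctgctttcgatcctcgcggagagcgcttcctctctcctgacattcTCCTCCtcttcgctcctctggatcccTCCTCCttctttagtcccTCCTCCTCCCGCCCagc
Erbb2, chr11:98412234-98412483, plus strand: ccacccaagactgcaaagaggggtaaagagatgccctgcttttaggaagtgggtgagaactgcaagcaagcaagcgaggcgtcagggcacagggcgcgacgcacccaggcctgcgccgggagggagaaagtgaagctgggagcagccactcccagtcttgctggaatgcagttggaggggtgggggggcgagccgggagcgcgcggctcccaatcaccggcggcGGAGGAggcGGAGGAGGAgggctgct
Errfi1, downstream start, chr4:150854820-150855069, plus strand: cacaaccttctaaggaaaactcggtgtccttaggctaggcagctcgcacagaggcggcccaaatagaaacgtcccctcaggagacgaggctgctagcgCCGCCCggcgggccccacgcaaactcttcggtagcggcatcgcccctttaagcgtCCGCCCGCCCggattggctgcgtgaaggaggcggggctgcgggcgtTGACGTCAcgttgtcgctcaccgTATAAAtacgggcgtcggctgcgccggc
The Egfr window held 4 matches to TCCTCC, 2 of them overlapping, between 61 and 9 bases before the start, and 1 GC box that overlaps the last of them. The Erbb2 window held 3 matches to the same letters on the other strand, 2 of them overlapping, within 26 bases of the start, and TCCTCC was in 29.2% of the 32851 windows of this length. The downstream Errfi1 start had a cAMP response element 51 to 44 bases before it, a motif in 1.55% of windows, a TATAAA at 28 to 23 bases, in 12.4%, and 3 GC boxes, in 32.7%. The upstream Errfi1 window (chr4:150853546-150853795) held none of the motifs and had a GC content of 38.0%, against 64.8% in the downstream one. The Lrig1 window (chr6:94700146-94700395, minus strand) held 2 GC boxes. TTAGGG, found in 9.32% of windows, and TTCNNNGAA, found in 7.02%, were in none of the 5 windows. A match is a description of the letters, not of a bound site.

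Egfr was measured by 3 probes. The probe for NM_207655 (A_52_P106259) is printed 10 times on each array, and its normalized log2 intensity in Rap1-deficient liver was 10.64, 10.99 and 11.53 in replicates 1, 2 and 3 and 10.74 in the swap, against 12.11, 12.08, 12.07 and 12.31 in wild-type liver. All 4 Rap1-deficient values lay below all 4 wild-type values, and replicate 3 came closest. The log2 ratios were -1.46, -1.09, -0.53 and -1.57, with a mean over pairs of -1.05 ± 0.49 (SD, n = 3). The spread was on the Rap1-deficient side, where the values covered 0.89 on the log2 scale, against 0.25 in wild-type liver.

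The same probe shows how far the spots of an array agree. Of its 10 spots, 8 entered on every array after outlier flags, and their log2 ratios had an SD of 0.05 in replicate 1, 0.03 in replicate 2, 0.06 in replicate 3 and 0.05 on the dye-swapped array. Replicates 2 and 3 therefore differed by more than the spots of an array did, since the lowest spot of replicate 3 read -0.61 and the highest spot of replicate 2 read -1.03. These spots repeat 1 hybridization and are not replicates of the genotype.

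The 2 probes for NM_007912 gave Egfr at lower signal, and levels of different probes cannot be compared. The first (A_55_P1956862) read 8.69, 8.19, 8.35 and 8.48 in Rap1-deficient liver in replicates 1, 2, 3 and the swap, against 10.12, 9.97, 9.90 and 10.27 in wild-type liver. Its log2 ratios were -1.43, -1.77, -1.54 and -1.79, with a mean over pairs of -1.64 ± 0.12 (SD, n = 3). The groups were apart by more than 1 log2 unit, and replicate 3 was no closer to wild-type than replicate 1. The second (A_55_P1956863) read 8.62, 8.21, 8.68 and 8.34 in Rap1-deficient liver, against 9.68, 9.63, 9.59 and 9.73 in wild-type liver. Its log2 ratios were -1.06, -1.42, -0.91 and -1.39, with a mean of -1.18 ± 0.26 (SD, n = 3), and the genotypes did not overlap. In replicate 3 the 3 Egfr probes thus gave -0.53, -1.54 and -0.91, so that the size of the Egfr difference in that pair depended on the probe, while its direction did not.

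**Figure D1:**
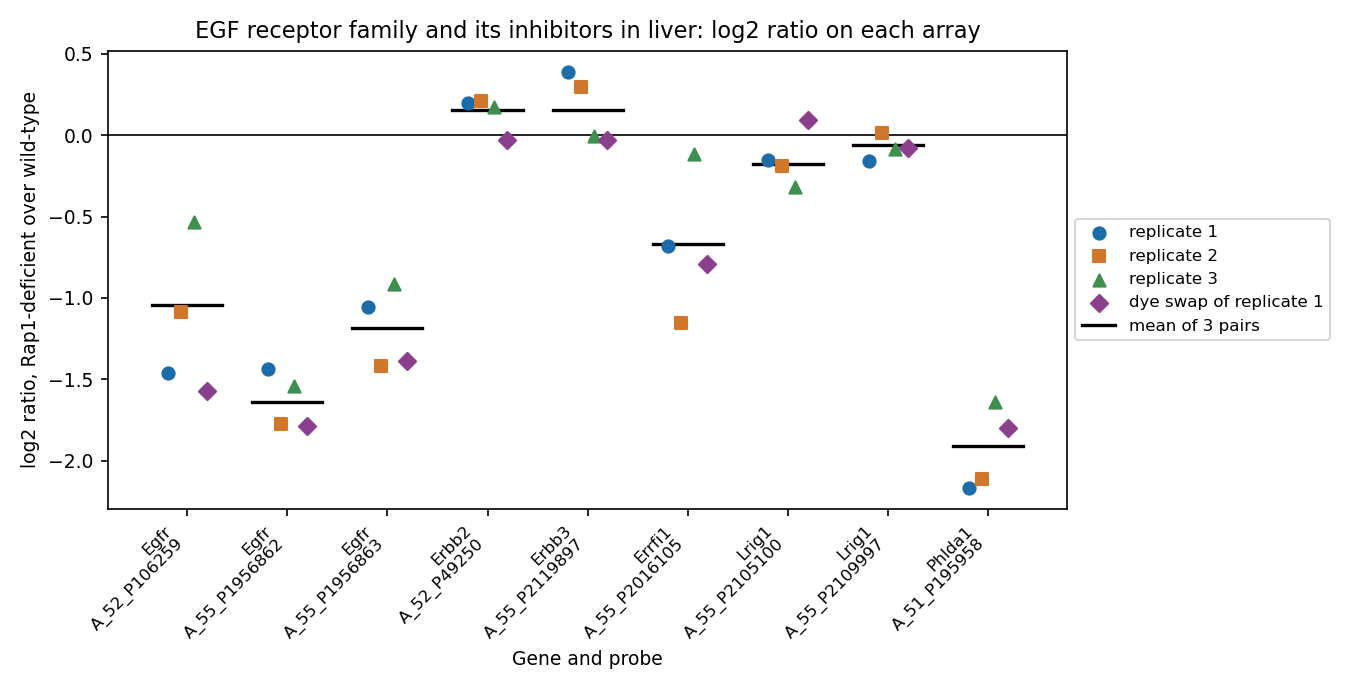
Log2 ratio of Rap1-deficient over wild-type liver (vertical axis) for each probe of the 6 genes (horizontal axis), with 1 marker per array, the dye-swapped array turned, and a black line at the mean of 3 pairs. The 3 Egfr probes, Errfi1 and Phlda1 lie below 0 on all 4 arrays, and in replicate 3 Errfi1 read -0.11 and the first Egfr probe -0.53.

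The partner receptors were measured near the lower end of the signal range. Erbb2 (A_52_P49250, NM_001003817), whose product is the preferred partner of other family members, read 6.82, 6.90, 6.93 and 6.82 in Rap1-deficient liver in replicates 1, 2, 3 and the swap, against 6.62, 6.69, 6.75 and 6.84 in wild-type liver. Its log2 ratios were 0.20, 0.21, 0.18 and -0.03, and the mean over pairs was 0.16 ± 0.06 (SD, n = 3). The genotypes overlapped because of the dye-swapped array, where wild-type was the higher. Its 10 spots per array had SDs of 0.10 to 0.20, about the size of the mean difference, and on every array at least 1 spot read below 0 and at least 1 above it.

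Erbb3 (A_55_P2119897, NM_010153), the receptor that recruits PI3K when it is phosphorylated, exceeded background on 4 of 4 Rap1-deficient channels and 3 of 4 wild-type channels. It read 6.84, 6.92, 6.74 and 6.47 in Rap1-deficient liver, against 6.45, 6.63, 6.74 and 6.50 in wild-type liver. The log2 ratios were 0.39, 0.30, -0.0024 and -0.03, with a mean of 0.16 ± 0.15 (SD, n = 3). The genotypes overlapped, and the 2 arrays of replicate 1 differed by 0.42, more than the mean difference. Erbb4, the remaining receptor, was not well above background in either genotype on any array.

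**Figure D2:**
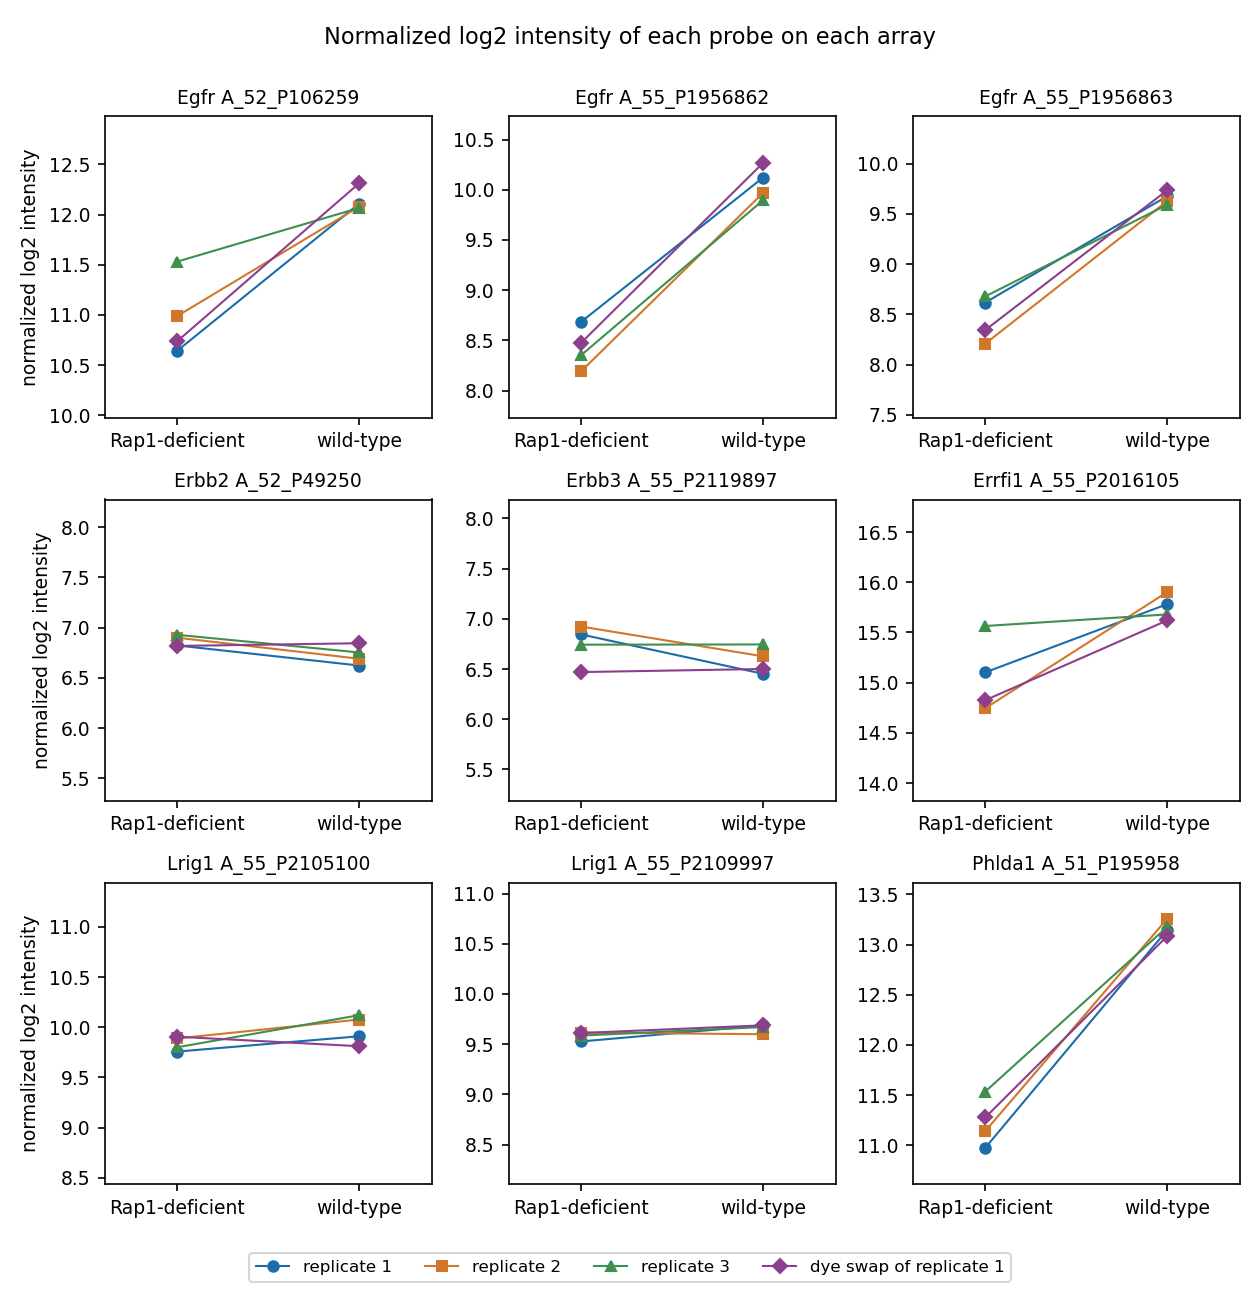
Normalized log2 intensity of each probe (vertical axis, 3 log2 units in every panel) in Rap1-deficient liver at the left and wild-type liver at the right, with a line joining the 2 channels of an array. In the panels of Egfr, Errfi1 and Phlda1 all Rap1-deficient values lie below all wild-type values, and in those of Erbb2, Erbb3 and Lrig1 the genotypes overlap.

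Of the inhibitors, Phlda1 was the lowest in Rap1-deficient relative to wild-type liver. It encodes a small pleckstrin homology-like protein, also known as TDAG51, that has been linked to apoptosis and to restraint of receptor tyrosine kinases. Its probe (A_51_P195958, NM_009344) read 10.98, 11.14, 11.54 and 11.28 in Rap1-deficient liver in replicates 1, 2, 3 and the swap, against 13.14, 13.25, 13.17 and 13.08 in wild-type liver. All arrays agreed in direction, and the highest Rap1-deficient value was more than 1 log2 unit below the lowest wild-type value. The log2 ratios were -2.17, -2.11, -1.64 and -1.80, with a mean of -1.91 ± 0.25 (SD, n = 3).

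Errfi1 encodes MIG6, a feedback inhibitor that binds the kinase domain of EGFR and is induced by its signaling. The probe (A_55_P2016105, NM_133753) read 15.10, 14.75, 15.56 and 14.83 in Rap1-deficient liver, against 15.78, 15.90, 15.68 and 15.62 in wild-type liver. The genotypes did not overlap, but the highest Rap1-deficient and the lowest wild-type value, 15.56 and 15.62, nearly touched. Its log2 ratios were -0.68, -1.15, -0.11 and -0.79, with a mean of -0.67 ± 0.52 (SD, n = 3). The Errfi1 difference was thus carried by replicates 1 and 2, and the 2 arrays of replicate 1 differed by 0.12.

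Lrig1 encodes a transmembrane protein with leucine-rich repeats that promotes degradation of the receptors. Its first probe (A_55_P2105100, NM_008377) read 9.76, 9.89, 9.80 and 9.91 in Rap1-deficient liver, against 9.91, 10.08, 10.12 and 9.81 in wild-type liver. The log2 ratios were -0.15, -0.19, -0.32 and 0.09, with a mean of -0.18 ± 0.15 (SD, n = 3), and the genotypes overlapped. Its second probe (A_55_P2109997) had log2 ratios of -0.16, 0.02, -0.09 and -0.08, with a mean of -0.06 ± 0.07 (SD, n = 3). The genotypes overlapped at this probe too. The mean of the first probe was larger than its SD over pairs, and that of the second was not.

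By limma over the 27513 tested probes with the study's false discovery rate of 0.15, 5 of the 9 probes of the family passed in the lower direction, 3 for Egfr and 1 each for Errfi1 and Phlda1, and 0 in the higher direction, also at an unadjusted p under 0.05. Of all tested probes, 13.7% were lower and 20.8% higher. The 9 probes were put together with this contrast known, so nothing is read from their count. Ordered from the lowest fold change, Phlda1 stood at place 10 of 27513, the Egfr probes at 17, 47 and 68, and Errfi1 at 320. The same 5 probes were lower on all 4 arrays, against 10.9% of all tested probes, and had no overlap between genotypes, against 5.8% with all Rap1-deficient values below all wild-type values.

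The dye-swapped array matters for such counts, because many called probes did not keep their direction on it. Among the 3771 probes called lower, 44.9% were lower on the dye-swapped array too, and among the 5717 called higher, 30.5% were higher on it. The 2 arrays of replicate 1 differed by a median of 0.31 on the log2 scale over all tested probes and of 0.62 over those called in either direction. Those 2 arrays were averaged before the fit, so the SD and SE over pairs and the adjusted p do not measure the gap between them. For the Egfr probes that gap was 0.11, 0.35 and 0.33, for Errfi1 0.12 and for Phlda1 0.36, each smaller than the mean difference between genotypes. The largest gap in the family was that of Erbb3.

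**Figure D3:**
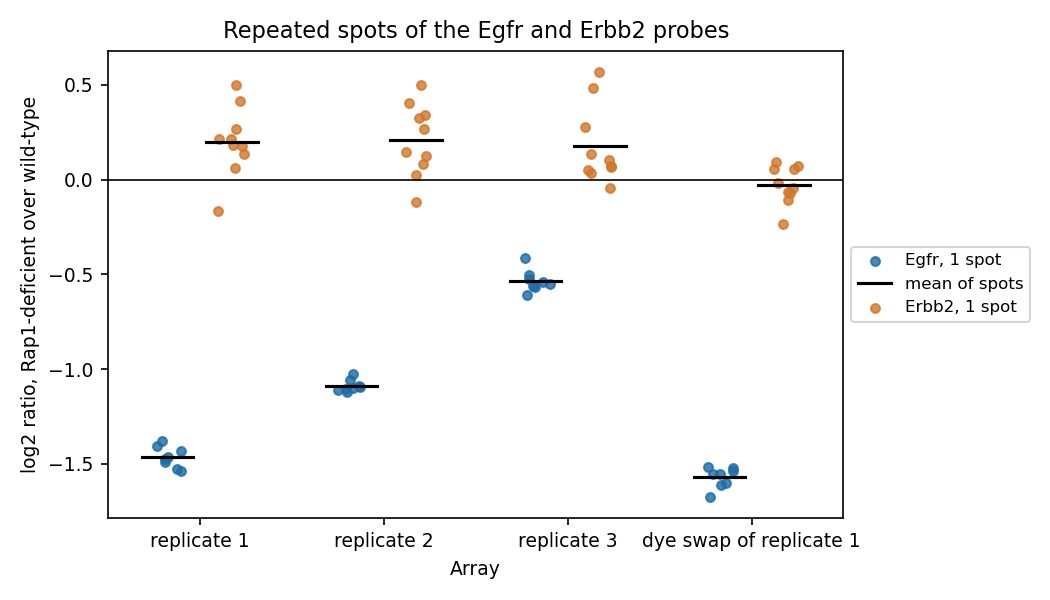
Log2 ratio of Rap1-deficient over wild-type liver (vertical axis) at the spots of the repeated Egfr and Erbb2 probes on each array (horizontal axis), with 1 point per unflagged spot and a line at their mean. Every Egfr spot lies below 0, with means of -1.46, -1.09, -0.53 and -1.57, and the Erbb2 spots lie on both sides of 0 on every array.

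Without replicate 2 the calls of the family were lost, as were most calls over all probes. In that fit limma passed 0 of the 9 probes and only 7 of all tested probes, against 9488 in the fit as reported. At an unadjusted p under 0.05 in limma, 4 of the 9 passed, against 3904 of all tested probes. The log2 fold changes were -1.03, -1.58 and -1.07 for the Egfr probes, -1.81 for Phlda1 and -0.43 for Errfi1. Leaving out replicate 1, whose Rap1-deficient liver had the high adipocyte markers, also removes the swap, so that Rap1-deficient RNA carried Cy5 on both remaining arrays and dye and genotype cannot be told apart there. In that fit the log2 fold changes were -0.81, -1.66 and -1.16 for Egfr, -1.87 for Phlda1 and -0.63 for Errfi1. All 5 passed, as did the first Lrig1 probe (-0.25), in a fit where 12596 of all 27513 tested probes passed. Without replicate 3, Errfi1 was at -0.95 and the first Egfr probe at -1.30. With the swap counted as a further replicate, 83 of all tested probes passed. Among them were 2 of the Egfr probes and Phlda1, and Errfi1 did not pass. With a dye term fitted over the 4 arrays, Egfr was at -1.30, -1.69 and -1.26 and Phlda1 at -1.89, all past the threshold. Errfi1, at -0.72, was not past it, and 1844 of all tested probes were.

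**Figure D4:**
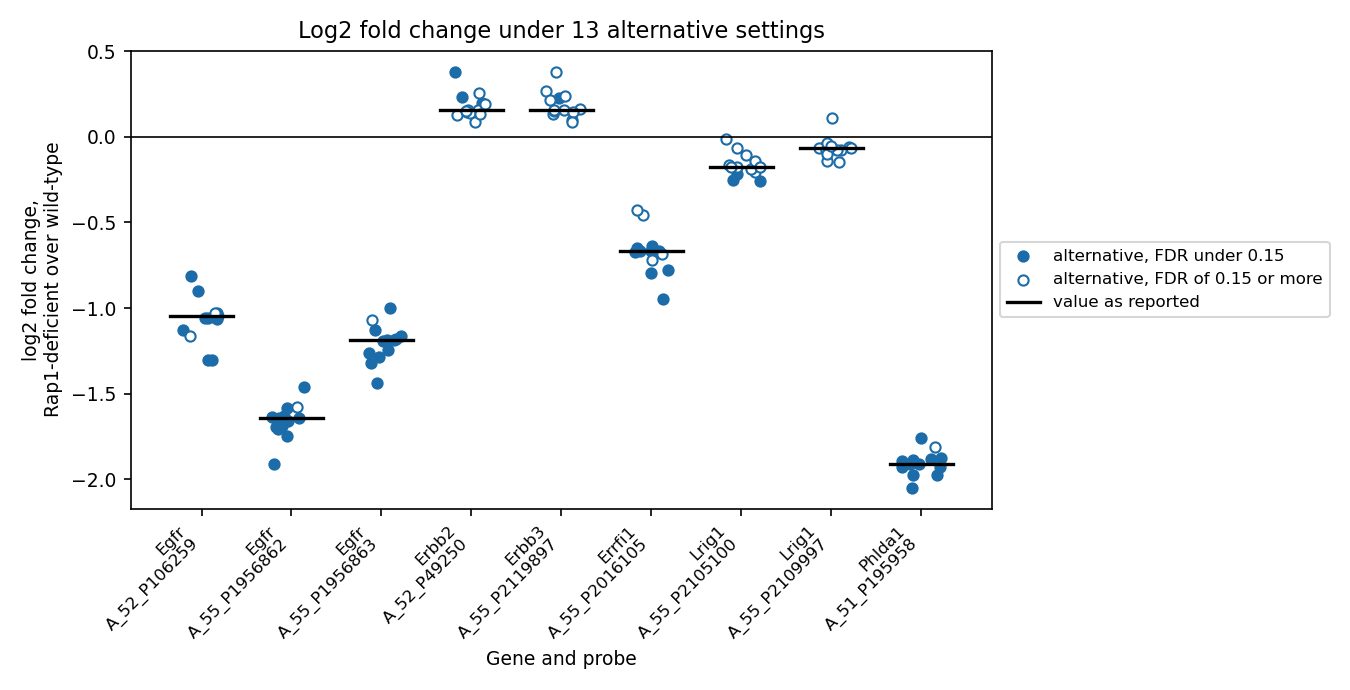
Log2 fold change of Rap1-deficient over wild-type liver (vertical axis) for each probe (horizontal axis), with a black line at the value as reported and 1 circle for each of 13 alternative settings, filled where the probe passed the false discovery rate of 0.15. Egfr stays between -1.91 and -0.81 and Phlda1 between -2.05 and -1.76, and the second Lrig1 probe turns to 0.11 under 1 setting.

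The other genes of the pathway were taken from lists of 144 genes by role, each represented by its probe of the highest mean intensity, and 122 of them were tested. By limma, 29 were higher and 23 lower, against 18% higher and 16.1% lower of all 13164 named genes, and the median log2 fold change of the 122 was 0.01, against 0.005 over all named genes. Of the 52 called genes, 24 had the same direction on the dye-swapped array. Without replicate 2, 0 of the 122 passed in limma, and 25 had an unadjusted p under 0.05, against 3904 of all 27513 tested probes. With the swap counted as a further replicate, 0 passed, and 33 had an unadjusted p under 0.05, against 5578 of all tested probes. Of 29 pathway genes with more than 1 tested probe, 10 had probes with fold changes of both signs.

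Of 11 ligand genes, 6 were tested, and the median log2 fold change was -0.11. Nrg1, a ligand of ERBB3 and ERBB4, rose by 0.44 on the log2 scale (SE 0.12, limma adjusted p = 0.0748), with 0.19, 0.47 and 0.69 in replicates 1 to 3 and 0.12 in the swap. Hbegf, a membrane-anchored ligand of EGFR, fell by 0.26 (SE 0.08, adjusted p = 0.104), with -0.19, -0.21, -0.35 and -0.21 on the same arrays. Both kept 1 direction on all arrays. Epgn and Egf had log2 fold changes of -0.24 and -0.14, did not pass, and turned to 0.63 and 0.17 in the swap. Tgfa, a ligand of EGFR that hepatocytes are known to make, had ratios of -0.16, -0.04, -0.08 and -0.13 and did not pass. Nrg4 did not pass either, with -0.62, 0.52 and 0.36 in replicates 1 to 3 and -0.05 in the swap at its brighter probe. Areg, Btc, Ereg, Nrg2 and Nrg3 were too dim to be tested.

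Of the 10 genes of ligand shedding, 2 rose and 2 fell, and the median was -0.12. Adam17, the main protease that frees EGFR ligands from the membrane, fell by 0.54 (SE 0.10, limma adjusted p = 0.0431), and Adam9, a related protease, fell by 0.56 (SE 0.10, adjusted p = 0.0415). On the dye-swapped array the 2 read -0.07 and -0.01. Timp3, an inhibitor of ADAM17, rose by 0.51 (adjusted p = 0.0432), with 0.17 in the swap. Rhbdl2, a rhomboid protease, rose by 0.52 (adjusted p = 0.0402), with -0.0071 in the swap, and was well above background in wild-type liver on only 1 of 4 arrays.

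Among 14 tested inhibitors of the receptors outside the family, 3 rose and 3 fell, with a median of -0.05. Socs3, a cytokine-induced suppressor, fell by 0.57 (SE 0.15, limma adjusted p = 0.0696), with -0.89, -0.78 and -0.14 in replicates 1 to 3 and -0.71 in the swap. Like Errfi1, it was least changed in replicate 3. Socs5, a suppressor that promotes EGFR degradation, fell by 0.36 (adjusted p = 0.0692), with -0.09 in the swap. Cbl, the ubiquitin ligase that marks EGFR for the lysosome, rose by 0.61 (adjusted p = 0.0534), with 0.0047 in the swap, and was well above background in wild-type liver on 1 of 4 arrays. Ptprj, a receptor phosphatase, rose by 2.60 (adjusted p = 0.0414) at its brightest probe, but read -0.80 in the swap, and its other 3 probes gave -0.03, 0.39 and 0.51.

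Of the 22 genes of receptor endocytosis and sorting, 6 rose and 4 fell, with a median of 0.08. Cltc, the clathrin heavy chain, rose by 0.48 (limma adjusted p = 0.0417), Eps15, an endocytic adaptor, by 0.41 (adjusted p = 0.0456) and Sh3kbp1, which links CBL to endocytosis, by 0.34 (adjusted p = 0.0622), with 0.17, 0.09 and 0.18 in the swap. A further Cltc probe (A_55_P2008879) gave 1.17 (adjusted p = 0.0402), with -0.35 in the swap, so that the Cltc probes disagreed in size and in the direction of the swap. In wild-type liver Sh3kbp1 was well above background on 2 of 4 arrays. Rab7, a late endosomal GTPase, rose by 1.16 (adjusted p = 0.0405), with -0.22 in the swap. Tsg101, a component of the sorting machinery that carries receptors into the lysosomal route, fell by 0.39 (adjusted p = 0.0622, tied with Sh3kbp1), with -0.04 in the swap.

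Of 36 tested adaptors and signaling kinases, 10 rose and 7 fell, with a median of 0.01. Pik3r1, the regulatory subunit of PI3K, rose by 0.99 (limma adjusted p = 0.0402), with 0.13 in the swap, and Sos2, an exchange factor for RAS, fell by 0.54 (adjusted p = 0.0402), with -0.22. Grb14, an adaptor that binds receptor tyrosine kinases, fell by 0.66 (adjusted p = 0.0402), with -0.09. Map2k1, the kinase that activates ERK, rose by 0.51 (adjusted p = 0.0402), with -0.13. The first 3 of these kept their direction in the swap and Map2k1 did not.

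Of 13 tested feedback inhibitors of ERK signaling, 5 rose and 2 fell, with a median of 0.05. Dusp1, a phosphatase of MAP kinases, rose by 0.42 (limma adjusted p = 0.0431), Pebp1, an inhibitor of RAF, by 1.78 (adjusted p = 0.0433) and Nf1, a GTPase-activating protein for RAS, by 0.67 (adjusted p = 0.0484). At these probes all 3 read below 0 in the swap, at -0.11, -0.63 and -0.32. For Dusp1, 0.93 on the array of replicate 1 and -0.11 in the swap averaged to 0.41, beside 0.40 and 0.44 in replicates 2 and 3. Its adjusted p does not measure the gap between those 2 arrays. A further Pebp1 probe (A_51_P171697) gave 0.61 (adjusted p = 0.0402), with 0.32 in the swap, and so kept its direction there. Spred2, an inhibitor of RAF activation, fell by 0.29 (adjusted p = 0.0789), with 0.0027 in the swap.

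Of 21 tested immediate early and ERK target genes, 2 rose and 4 fell, with a median of -0.02. Klf10, a TGF-beta-induced repressor, fell by 0.57 (limma adjusted p = 0.0467), with -0.11 in the swap, and Fosl2, an AP-1 subunit, fell by 0.61 (adjusted p = 0.0701), with -0.0027. Klf6, a zinc finger factor, rose by 0.69 (adjusted p = 0.0691), with 0.28. Ier2, an immediate early gene, rose by 0.41 (adjusted p = 0.0654), with -0.50, and was well above background in wild-type liver on 1 of 4 arrays.

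**Figure D5:**
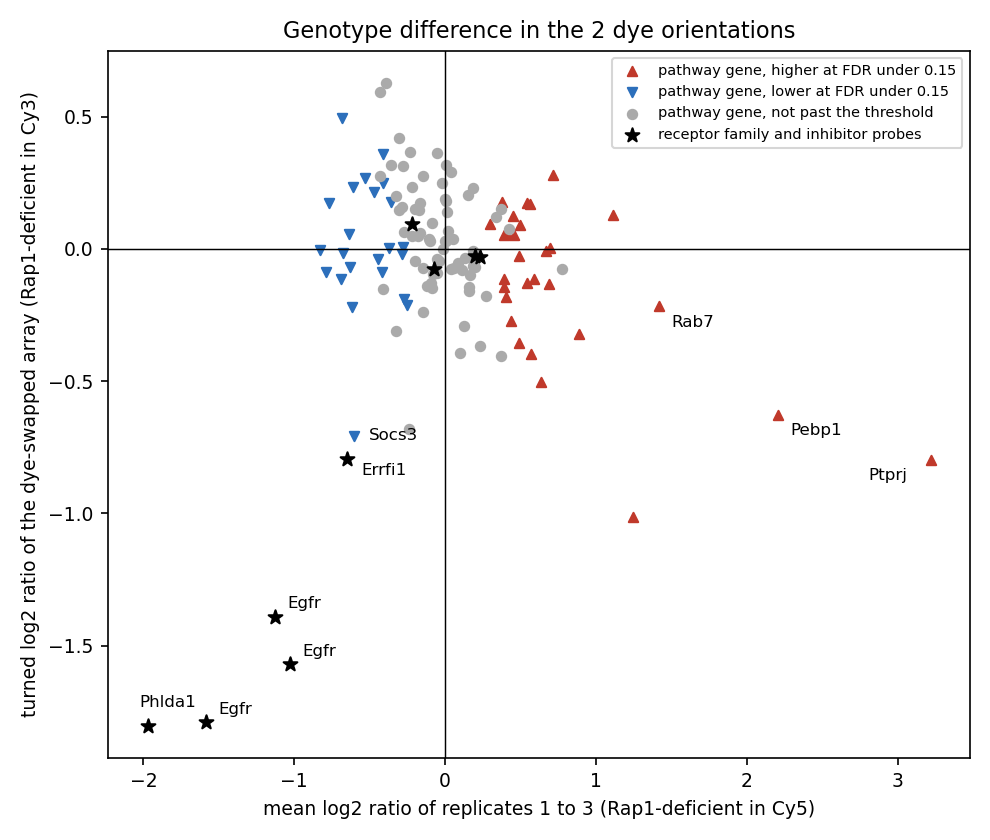
Mean log2 ratio of replicates 1 to 3 (horizontal axis) against the turned log2 ratio of the dye-swapped array (vertical axis), both Rap1-deficient over wild-type, for the 122 pathway genes and the 9 probes of the receptors and inhibitors (stars). The stars of Egfr, Errfi1 and Phlda1 lie below 0 on both axes, whereas Ptprj, Pebp1 and Rab7 lie above 0 on one and below 0 on the other.

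Over the 4 arrays, the tested probes of other named genes nearest to each gene of the family were found by Euclidean distance between log2 ratios, from its probe of the highest mean intensity. Phlda1 was nearest to the Terf2ip probe that was below background in Rap1-deficient liver (distance 0.56), Slco1a1, an organic anion transporter of the hepatocyte (0.71), and Hhex, a homeobox factor (0.80). The ratios of Hhex were -2.21, -1.60 and -1.18 in replicates 1 to 3 and -1.41 in the swap. Egfr was nearest to Foxq1, a forkhead factor (0.51), Akr1b7, an aldo-keto reductase (0.62), and Sult5a1, a sulfotransferase (0.73), while its own other probes lay at 0.67 and 1.24. The ratios of Foxq1 were -1.06, -0.99, -0.69 and -1.31, with the least difference in replicate 3. The Egfr probe compared here (A_52_P106259) was also least changed in replicate 3, but A_55_P1956862 was least changed in replicate 1. Errfi1 was nearest to Blnk (0.35), Socs3 (0.44) and Disp2 (0.46). Erbb2, Erbb3 and Lrig1 had small ratios and nearest probes at distances of 0.03 to 0.06: 2310022B05Rik, Nat14 and Cisd3 for Erbb2, Sorbs2, Nme6 and Marchf10 for Erbb3, and Uqcrb, Zfp606 and Mrpl13 for Lrig1. With 4 arrays, the order of these distances is a description only.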

How the data were processed

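Liver RNA of Rap1-deficient and wild-type mice was hybridized to 4 Agilent 2-colour arrays, grouped by genotype and dye as the labels give them. The authors deposited spot intensities from Agilent Feature Extraction 10.7.3.1, as scanned, with local background intensities and well-above-background flags, besides the software's processed intensities. The deposited log10 ratios of Cy5 over Cy3 come from those processed intensities and are not turned for the dye swap, and were used only to check the direction of the value table. The authors also deposited a table of log2 ratios per probe, credited to limma, whose background correction and centring no source used here gives. Here median intensities were corrected by normexp (offset 50) and normalized by loess within arrays (limma 3.58.1, R 4.3.3). Outlier spots were dropped, repeated spots averaged, the dye swap turned and averaged with replicate 1. Reading it as the swap of replicate 1 follows its number. The log2 ratios of Adipoq (1.73 and 1.85) and Cfd (2.35 and 2.28) were alike on those 2 arrays, whereas those of Lep (0.36 and -0.16) were not. Intensities per genotype came from quantile normalization of mean intensities. Probes with at least 0.5 of their spots well above background throughout 1 genotype or both were tested over 3 pairs, with Benjamini-Hochberg adjustment over all of them. Accessions were named through RefSeq of GRCm38.p6, which named 26050 probes. The fit was tested on data simulated as independent noise over 3 pairs. The simulation held no dye effect, so it cannot show whether dye bias enters the calls. Named were all members, Terf2ip, up to 4 genes of the smallest adjusted p per list, and the 3 nearest tested probes of other named genes per member (a tie in adjusted p, Tsg101, is named too). Members and lists were chosen with earlier results of these data known. Alternatives varied the background, normalization, filter, flags, dye swap, threshold and replicates.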

Additional observations from a re-analysis of the deposited data

How the results depend on the processing

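The direction of all 9 probes of the family was kept under 13 alternative fits, except for the second Lrig1 probe (0.11 with median centring in place of loess, where the median of all tested probes moved to 0.17, against 0.03). Which probes passed depended on how the dye-swapped array and the replicates were used. Over all tested probes, where 9488 passed, 14496 passed without the dye-swapped array, 83 with it as a further replicate, 1844 with a dye term, 2495 at a false discovery rate under 0.05, and 7 to 12596 with a replicate left out. Of the 9 probes, where 5 passed, 8 did without the dye-swapped array, 3 with it as a further replicate, and 0 to 6 with a replicate left out. Of the 122 pathway genes, where 52 passed, 34 did with median centring, 0 with the swap as a further replicate, 11 with a dye term, 17 at a false discovery rate under 0.05, and 0 to 68 with a replicate left out. With a dye term, Epgn turned to 0.12 and Egf to 0.00497, and neither passed in the fit as reported. The cause of these shifts was not tested. With median centring the called probes split into 5676 higher and 796 lower, against 5717 higher and 3771 lower. The authors' value table gave 4540 higher and 5482 lower, with 23 higher and 32 lower among the pathway genes. Signal limits Erbb3, which was above background on 3 of 4 wild-type arrays, and Erbb4, which was below it. Each ratio is taken within an array, so the fit over 3 pairs is already paired. The 2 dye orientations were joined by the number 1.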
